A study of Rattus norvegicus with 24 samples.

Results

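The comparison described here is the interaction of diet and ozone in rat serum, that is, whether the difference between ozone-exposed and air-exposed rats was of another size on a fish oil diet than on a normal diet. For each microRNA (miRNA) it was computed as a difference of differences on the log2 scale: fish oil ozone minus fish oil air, less normal ozone minus normal air. A positive value means that the ozone-minus-air difference was higher on fish oil, and an interaction of 1 is a 2-fold gap between the diets. All 4 groups enter the contrast, with 23 of the 24 samples of the series, and 136 of 753 miRNA names had enough counts to be tested. The miRNAs tested were kept by their counts and not by measured differences, but those named below were picked partly by their interaction p.

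The rats were male Wistar Kyoto (WKY) animals. From 4 weeks of age and for 8 weeks they received either the normal facility chow or a custom diet holding 6% fish oil by weight. They then breathed filtered air or ozone at a target of 0.8 ppm (0.8045 ppm measured) for 4 h on each of 2 consecutive days. The normal air, normal ozone and fish oil air groups had 6 libraries each and the fish oil ozone group had 5; the sample labelled fish oil ozone 2 was not analysed here. No group on another oil was analysed here, so fish oil cannot be told apart from the other differences between the diets. Rats were caged in pairs and the labels do not say which shared a cage, so the p-values measure the spread between these serum samples.

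A miRNA is a short RNA that guides Argonaute proteins to messenger RNAs, mostly through pairing of its seed near the 5′ end, and lowers their translation or stability. Serum miRNAs come from blood cells and from solid organs, carried in vesicles, lipoproteins or protein complexes, and some are dominated by one source: miR-122 by hepatocytes, the miR-200 family by epithelia, miR-451 by red cells. Ozone is an oxidant gas that injures the airway lining and releases stress hormones that alter lipid and glucose metabolism, and fish oil supplies long-chain n-3 fatty acids. The ratio of miRNA counts between libraries does not separate more releasing cells from more RNA released per cell, which cannot be told apart in serum.

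Mature sequences of some of the miRNAs named below are given first, because the values that follow are grouped partly by their seeds. They are RefSeq sequences from the rat GRCr8 table, written 5′ to 3′, with the seed (bases 2 to 8) in capitals. The first 8 had among the smallest interaction p-values or, for let-7f, let-7a and miR-181b, share a seed with one that did:
let-7i-5p: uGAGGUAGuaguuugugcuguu
let-7f-5p: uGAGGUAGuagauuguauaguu
let-7a-5p: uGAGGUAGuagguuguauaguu
miR-181d-5p: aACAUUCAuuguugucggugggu
miR-181b-5p: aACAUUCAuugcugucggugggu
miR-22-3p: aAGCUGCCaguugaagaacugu
miR-192-5p: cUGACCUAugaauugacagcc
miR-122-5p: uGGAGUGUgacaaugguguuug
The next 4 are neighbours of these in the genome, in organ of origin or in the ranking or, for miR-25-3p, share a seed with miR-92a-3p:
miR-194-5p: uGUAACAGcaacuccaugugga
miR-141-3p: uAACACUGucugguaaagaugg
miR-92a-3p: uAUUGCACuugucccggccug
miR-25-3p: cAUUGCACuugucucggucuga
Of the 136 miRNAs tested, 125 matched a RefSeq entry; miR-200a-3p and miR-429 are named only. let-7f-5p and let-7a-5p differ by 1 base, as do miR-181d-5p and miR-181b-5p, so reads of these pairs could be split between names by the authors' counting and their single values are uncertain.

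No miRNA passed the test for a diet by ozone interaction. By edgeR's quasi-likelihood test with Benjamini-Hochberg adjustment over all 136, 0 miRNAs (0% of those tested) had an adjusted p below 0.05, and the smallest adjusted p was 0.468. Before adjustment, 6 miRNAs fell below a p of 0.05, or 4.41% of those tested, where 5% of 136 is 6.8. DESeq2 also called 0 miRNAs, with 10 of 440 at an unadjusted p below 0.05, and limma voom called 0, with 7. Over 10 equal bins, the unadjusted p-values gave between 11 and 19 miRNAs a bin, against 13.6 for an even spread.

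**Figure D1:**
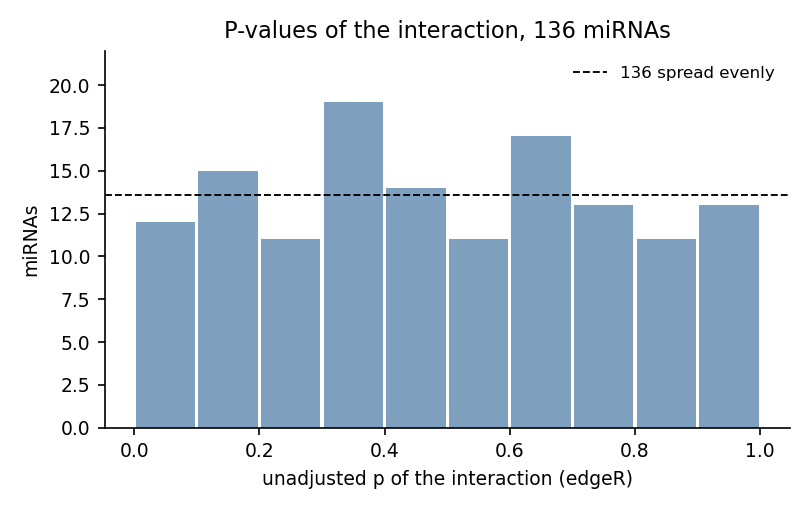
Number of miRNAs (y axis) by unadjusted p of the interaction in 10 equal bins (x axis), from edgeR over 136 miRNAs; the dashed line is 13.6, an even spread. The first bin holds 12 miRNAs, fewer than the line.

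Interactions were centred near 0, with a median of −0.05 and quartiles of −0.33 and 0.29 on the log2 scale. There were 62 positive and 74 negative values, and 99 of the 136 were smaller than 0.5 in size. The values beyond 1 were 6 positive and 3 negative ones, from miR-217-5p (−1.98) to miR-122-5p (2.07). Scaling each library to its total miRNA count moved the median of all miRNAs to −0.25, so values under that scaling sit lower as a body.

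The median standard error of an interaction was 0.46, running from 0.26 for miR-26a-5p to 1.28 for miR-217-5p. The median 95% interval reached 0.93 on either side, a factor of 1.91. For 33 miRNAs, 24.3% of those tested, the whole interval lay within a 2-fold difference between diets in either direction. Among them were miR-16-5p, which red cells carry in abundance (interaction −0.03, 95% interval −0.63 to 0.57), miR-21-5p, a miRNA raised in inflamed and injured tissue (0.15, −0.47 to 0.76), and miR-24-3p (0.12, −0.45 to 0.69). For 117 miRNAs the interval lay within 4-fold, and for the other 19 it reached beyond. For most miRNAs a 2-fold gap between diets was therefore not excluded. At the median interval width, gaps smaller than 1.91-fold could not be set apart from none at this depth and number of rats.

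The variance of the log2 levels was divided between diet, ozone, their interaction and the spread within groups. The median share over miRNAs was 1.61% for the interaction, 1.96% for ozone and 14.3% for diet, and 74.9% lay within groups. The highest share of the interaction in any miRNA was 33.2%.

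The miRNA with the smallest p was let-7i-5p, a member of the let-7 family, which represses growth-promoting genes such as Ras and Lin28. In CPM, here miRNA counts scaled to a common library total after TMM normalization, the normal air libraries ran from 11528 through a median of 15302 to 17199, and the normal ozone libraries from 13711 through 18563 to 23881. The fish oil air libraries ran from 10408 through 18896 to 23652, and the 5 fish oil ozone libraries held 11697, 9140, 12605, 18475 and 11868 CPM. Air and ozone ranges overlapped on both diets; all 5 fish oil ozone libraries were below the median of fish oil air, and 1 was below its range. The ozone difference was 0.35 (SE 0.21) on the normal diet and −0.52 (SE 0.22) on fish oil, an interaction of −0.87 (SE 0.30, 95% interval −1.48 to −0.26, adjusted p = 0.468). All 5 fish oil ozone libraries lay below the level that adding the separate diet and ozone differences gives. That is the same contrast read by library, for a miRNA picked by its p, and adds no support to it. Leaving out 1 library at a time gave interactions between −1.01 and −0.74. With total miRNA count scaling the interaction was −1.08 and its adjusted p 0.0501, the smallest among the alternatives. Under 3 of the 14 other settings its unadjusted p was above 0.05, at most 0.0779 by edgeR with the implied read total as scaling.

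miR-200a-3p, a member of the epithelial miR-200 family that holds down the mesenchymal factors Zeb1 and Zeb2, had the opposite pattern at a lower level. Normal air libraries ran from 888 through a median of 1438 to 2127 CPM and normal ozone libraries from 573 through 1106 to 1301. Fish oil air libraries ran from 583 through 1447 to 1658, and the fish oil ozone libraries held 1354, 3025, 2656, 3073 and 971 CPM. Of these 5 libraries, 3 were above every library of the other groups and the other 2 were inside the range of fish oil air. As miR-200a-3p was picked by its p, this adds no support to its interaction. The share of miRNAs with such a pattern was not counted. The ozone difference was −0.45 (SE 0.31) on the normal diet and 0.84 (SE 0.33) on fish oil. Their gap was 1.30 (SE 0.46, 95% interval 0.36 to 2.23, adjusted p = 0.468), or 2.46-fold, and it lay between 1.08 and 1.47 as each library was left out. On the deposited RPM with 10 added, a constant that pulls log2 ratios of low counts toward 0, the interaction was 0.63. Under 4 of the 14 other settings its unadjusted p was above 0.05.

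miR-22-3p, an abundant miRNA of platelets, heart and many other tissues, was set apart by its normal-diet side. Its CPM ran from 36845 through a median of 53544 to 83513 in normal air and from 25600 through 33692 to 42929 in normal ozone. In fish oil air it ran from 33463 through 44264 to 53300, and fish oil ozone libraries held 52604, 40799, 33223, 66394 and 40643. The ozone libraries were low on the normal diet, with some overlap, while the fish oil groups covered much the same range. The ozone difference was −0.77 (SE 0.23, adjusted p = 0.186 by edgeR) on the normal diet and 0.11 (SE 0.24) on fish oil, an interaction of 0.88 (SE 0.33, adjusted p = 0.468). The normal-diet difference alone was called by DESeq2 (−0.78, adjusted p = 0.0134) and by edgeR without normal air 3 (−0.90, adjusted p = 0.0364). The interaction was not called in either, and under 3 of the 14 other settings its unadjusted p was above 0.05.

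miR-181d-5p belongs to a family best known from T cell development and vascular inflammation. Its CPM ran from 3950 through a median of 4741 to 5629 in normal air, from 3950 through 6013 to 8169 in normal ozone and from 2215 through 3449 to 5132 in fish oil air. Fish oil ozone libraries held 2524, 2104, 3286, 1284 and 2701 CPM, all below every library on the normal diet. That was also so for miR-191a-5p and miR-128-3p, and the number of miRNAs with such a gap was not counted. The ozone difference of miR-181d-5p was 0.31 (SE 0.23) on the normal diet and −0.59 (SE 0.25) on fish oil. Its interaction was −0.90 (SE 0.34, adjusted p = 0.468). Without fish oil ozone 5, its lowest library, the interaction was −0.66. Under 3 of the 14 other settings the unadjusted p of the interaction was above 0.05.

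Among miRNAs of the liver list, the levels on fish oil were low in air. miR-122-5p, the hepatocyte miRNA that regulates cholesterol and lipid genes, ran from 4489 through a median of 25354 to 74004 CPM in normal air and from 6260 through 19258 to 40642 in normal ozone. On fish oil the air libraries ran from 3315 through 7892 to 13822 and the ozone libraries held 13513, 10422, 11029, 52547 and 15936. Normal air libraries spread the most, and 1 fish oil ozone library, number 5, stood far above the other 4. The ozone difference was −0.76 (SE 0.58) on the normal diet and 1.32 (SE 0.62) on fish oil, an interaction of 2.07 (SE 0.85, 95% interval 0.31 to 3.84, adjusted p = 0.531). Without fish oil ozone 5 it was 1.35, with an unadjusted edgeR p above 0.05.

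miR-192-5p, enriched in liver, gut and kidney, ran from 58726 through a median of 86974 to 127055 CPM in normal air and from 41176 through 64380 to 116755 in normal ozone. Fish oil air libraries ran from 25756 through 46084 to 54075, and fish oil ozone libraries held 49865, 57698, 53706, 108400 and 54242. All normal air libraries were above all fish oil air libraries, whereas the ozone groups overlapped. Ranges that separate the diets were not particular to this miRNA, and their share over all miRNAs tested was not counted. All fish oil libraries of miR-191a-5p (at most 151203 CPM) were below all its normal-diet libraries (at least 176380). The same held for miR-128-3p (25432 and 31202 CPM). The ozone difference of miR-192-5p was −0.36 (SE 0.26) on the normal diet and 0.57 (SE 0.27) on fish oil. Its interaction was 0.93 (SE 0.38, adjusted p = 0.531), and 0.71 without fish oil ozone 5. miR-194-5p is encoded next to it on chromosome 1 (rn5, 228619901 to 228619923, with miR-192-5p at 228620095 to 228620116) and had an interaction of 1.33 (SE 0.73, adjusted p = 0.916), but from only 1 to 30 counts a library.

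**Figure D2:**
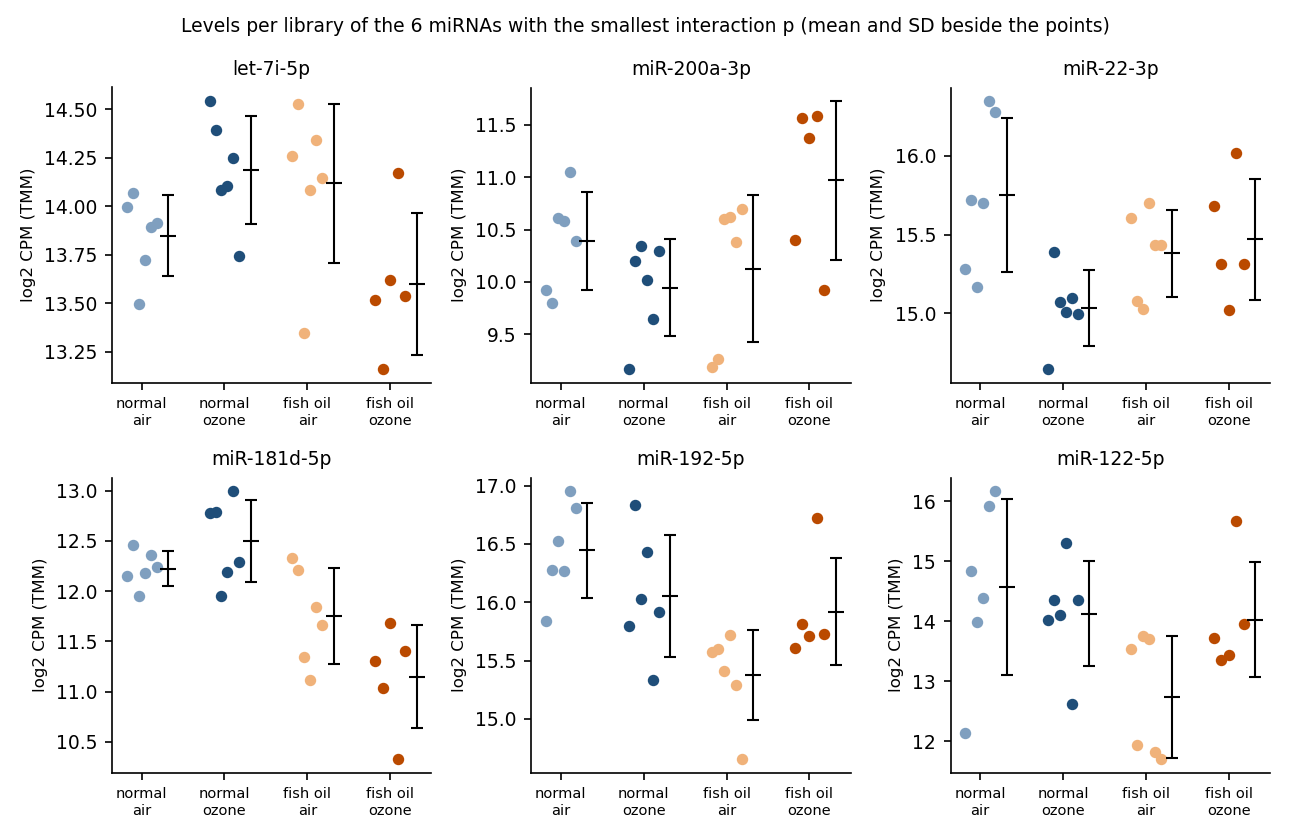
Level of each library (points, log2 CPM on the y axis) in the 4 groups (x axis) for the 6 miRNAs with the smallest interaction p; bars beside the points are the mean and SD of each group (n = 6, 6, 6 and 5). Fish oil ozone libraries of miR-181d-5p sit low, as do those of let-7i-5p apart from library 5 (18475 CPM). Those of miR-200a-3p sit high apart from libraries 1 and 6 (1354 and 971 CPM). In this group miR-122-5p and miR-192-5p have 1 high library, fish oil ozone 5.

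The next positive interactions were of epithelial and liver miRNAs and of miR-101b-3p and miR-29c-3p. miR-141-3p, of the miR-200 family, had group means of 709 ± 297 (normal air), 622 ± 307 (normal ozone), 627 ± 320 (fish oil air) and 1170 ± 716 CPM (fish oil ozone; SD), an interaction of 1.03 (SE 0.56). miR-429, encoded on chromosome 5 (rn5, 176962364 to 176962386) near miR-200a-3p (176963402 to 176963424), had an interaction of 1.40 (SE 0.80) from 0 to 24 counts a library. miR-101b-3p had 0.94 (SE 0.52), miR-29c-3p, which represses collagen genes, 0.91 (SE 0.54), and miR-3557-5p 0.62 (SE 0.37). miR-29c-3p was at 0.46 without fish oil ozone 3, and miR-3557-5p at 0.38 without normal air 6. The locus listed for miR-3557-5p overlaps that of miR-378a-3p, which was listed with 0 counts, so the name behind these reads is uncertain. The adjusted p of each of these 5 was 0.916.

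On the negative side, let-7f-5p had group means of 2512 ± 563 (normal air), 3667 ± 633 (normal ozone), 3560 ± 1256 (fish oil air) and 3384 ± 911 CPM (fish oil ozone; SD), an interaction of −0.62 (SE 0.35). miR-33-5p, which lies in an intron of the sterol regulator gene Srebf2 and represses cholesterol export, had −1.09 (SE 0.70), which became −0.63 without normal ozone 5 and −1.70 without fish oil ozone 3. miR-217-5p, a miRNA of pancreatic acinar cells, had the most negative value, −1.98, with an SE of 1.28 from 0 to 91 counts a library; fish oil air libraries ran from 0 to 1450 CPM and fish oil ozone libraries from 91.1 to 1016. That value rests on normal ozone 5, which held 31 counts against 0 to 7 in the other normal ozone libraries: without it the interaction was −0.67, and limma voom on all libraries gave −0.31. The remaining members of the 10 negative miRNAs with the smallest p were miR-92a-3p (−0.69), let-7a-5p (−0.57), miR-342-3p (−0.95), miR-27a-5p (−1.03) and miR-1839-5p (−0.76). Counts a library were low for miR-33-5p (3 to 41), miR-342-3p (1 to 19), miR-27a-5p (0 to 29) and miR-1839-5p (5 to 54). Without 1 library, miR-92a-3p was at −0.44 (fish oil ozone 3 left out), miR-1839-5p at −0.49 (normal air 3) and miR-27a-5p at −0.58 (fish oil air 1), −0.66 (fish oil ozone 3), −0.68 (fish oil ozone 4) or −1.78 (fish oil ozone 6). The adjusted p of these 8 was 0.916.

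**Figure D3:**
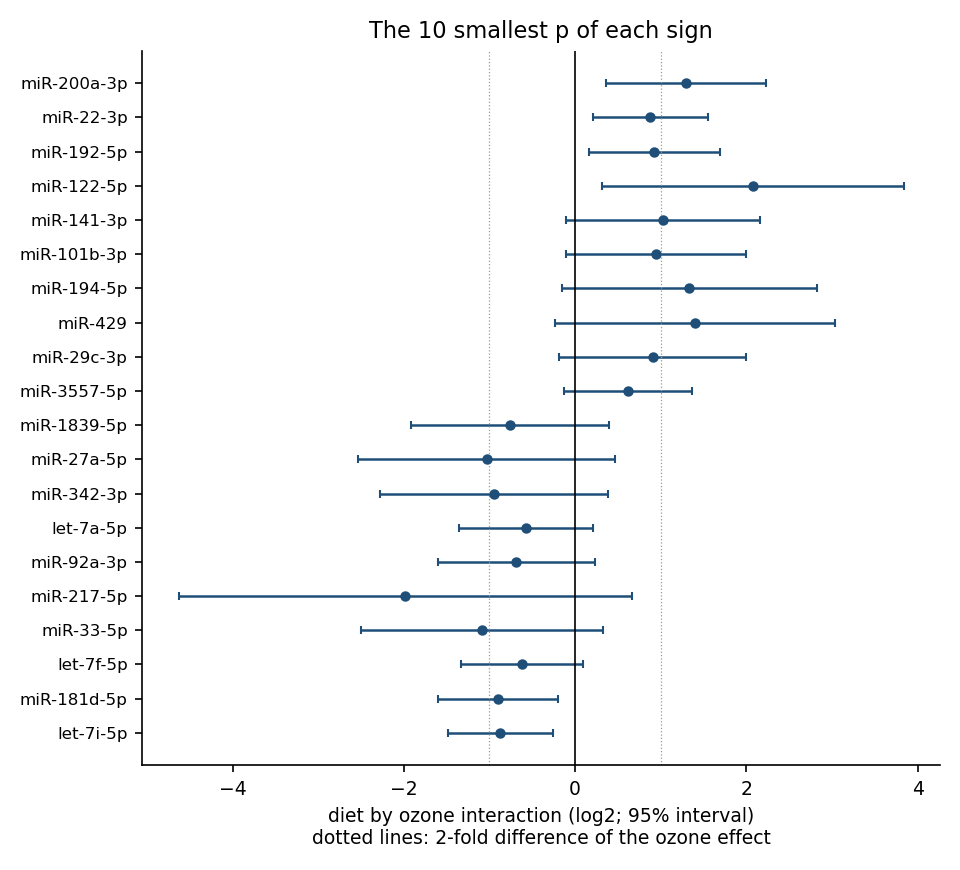
Interaction on the log2 scale (x axis; points, with 95% intervals as bars) of the 10 positive and 10 negative miRNAs with the smallest p (y axis); dotted lines mark a 2-fold gap between diets. The intervals of 6 miRNAs do not cross 0 and every one of the 20 reaches past a 2-fold line.

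The fixed lists of miRNAs were set beside all 136, whose median interaction was −0.05 with 62 positive; 0 members of any list were called, and no test was made of a list. Of the liver list, all 3 measured members had positive values and stayed positive under each alternative that tested them. Their median of 1.33 was the value of miR-194-5p, from 1 to 30 counts a library. On the deposited normalized values with 10 added the median was 0.79, and by edgeR with the implied read total as scaling 1.18. Of the epithelial list 4 of 5 were positive, with a median of 1.03. Over the 4 still tested without normal air 3 the median was 0.62. On the deposited normalized values with 10 added it was 0.18, against 0.95 by edgeR with the implied read total as scaling. An added constant pulls log2 ratios of low counts toward 0, and miR-429 had 0 to 24 counts a library. In the main fit miR-203a-3p had 0.26, and miR-205 was the negative one. All 9 let-7 members had negative values, from −0.87 (let-7i-5p) to −0.10, with a median of −0.41. Under the alternatives 8 or 9 let-7 members were negative and the median stayed between −0.58 and −0.21, the latter without fish oil ozone 3. These 9 share the seed GAGGUAG shown above, and reads of near-identical members may have been shared between names.

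All 4 measured miR-181 members were negative (median −0.25, and −0.09 without normal air 3), but miR-181d-5p stood apart at −0.90 from miR-181b-5p (−0.27), miR-181a-5p (−0.23) and miR-181c-5p (−0.06). miR-181c-5p is encoded beside miR-181d-5p on chromosome 19 in rn5. Of the miR-17-92 cluster and its paralogs, which drive proliferation, 8 of 9 were negative (median −0.30, and −0.17 without normal ozone 5). The 4 tested miRNAs with the seed AUUGCAC, of which miR-92b-3p is not in this list, ran from −0.75 (miR-363-3p) to −0.30 (miR-25-3p). The miR-29 pair was positive (median 0.62, and 0.26 without fish oil ozone 3).

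The mesenchymal, stress, vascular wall, myeloid and lipid metabolism lists had medians between −0.17 and 0.52. The mesenchymal list had 4 of 4 positive with a median of 0.41 (0.26 without fish oil air 6, 0.71 without fish oil air 1), including miR-199a-3p (0.61), miR-143-3p of smooth muscle (0.42) and miR-145-5p. The list for oxidative and hypoxic stress had 6 of 6 positive (median 0.52), 2 of them the epithelial members already named, and 3 of 6 with total miRNA count scaling; without fish oil ozone 3 its median was 0.20. The vascular wall list had 4 of 6 positive (median 0.24, and 0.06 without normal air 3) and the myeloid and inflammation list 4 of 6 (median 0.10), with miR-146a-5p, a brake on NF-kB signalling, at 0.64 and miR-146b-5p at −0.33. The lipid metabolism list had 4 of 13 positive (median −0.17), with miR-122-5p and miR-33-5p at opposite ends of it, the latter from 3 to 41 counts a library.

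Blood cell lists had medians close to that of all miRNAs: erythrocyte 2 of 7 positive (median −0.06), platelet 3 of 9 (median −0.14) and lymphocyte 3 of 6 (median −0.02). Striated muscle (0 of 3, median −0.13), neural and neuroendocrine (1 of 3, median −0.18), miR-30 (4 of 6, median 0.09), miR-15 and miR-16 (1 of 2, median 0.40) and miR-23, miR-24 and miR-27 (2 of 5, median −0.23) were likewise mixed or rested on few members. The medians of the neural, erythrocyte, striated muscle, myeloid, lymphocyte, platelet, lipid, miR-30, miR-15 and miR-16, and miR-23, miR-24 and miR-27 lists took the other sign under at least 1 alternative.

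**Figure D4:**
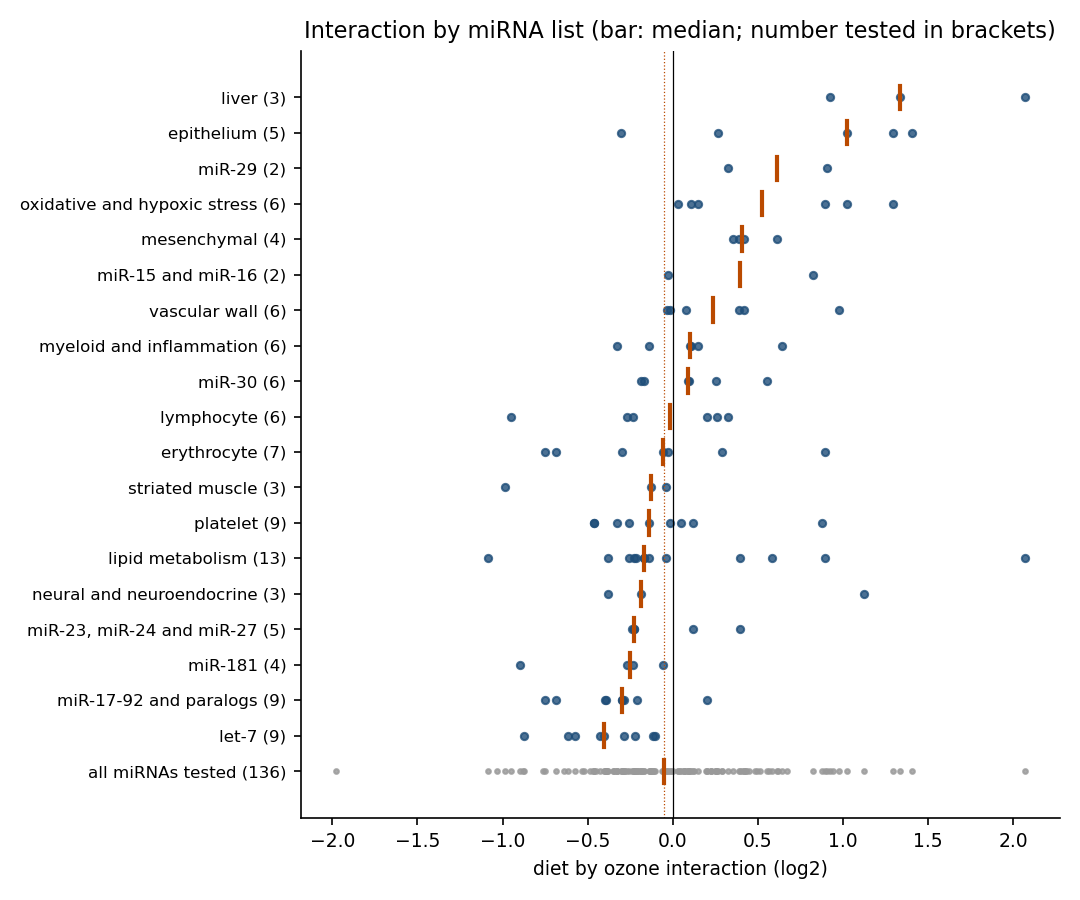
Interaction (x axis, log2) of each measured miRNA (points) in the 19 lists (y axis, number tested in brackets) and of all 136 miRNAs (grey); orange bars are medians and the dotted line the median of all, −0.05. Liver (1.33) and epithelial (1.03) medians lie highest and the let-7 median (−0.41) lowest.

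The ozone differences that make up the contrast were small on each diet. On the normal diet 0 of 136 miRNAs (0%) passed edgeR's test and 4 (2.94%) had an unadjusted p below 0.05; on fish oil 0 (0%) passed and 10 (7.35%) had one. No miRNA had air and ozone libraries whose ranges were separate, on either diet (0% of 136). The median size of the ozone difference was 0.19 on the normal diet and 0.25 on fish oil, against 0.31 for the interaction, which carries the error of both.

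By sign, 29 miRNAs had positive ozone differences on both diets and 39 negative ones on both. Another 33 were positive on the normal diet and negative on fish oil, and 35 the reverse. Across the 136 miRNAs, which are not independent, the ozone differences on the 2 diets had a Pearson r of −0.06 and a Spearman rho of −0.03, from separate sets of libraries. miR-375-3p, of pancreatic islets and other neuroendocrine cells, was the one with the clearest like-signed values: 1.0 (SE 0.31, adjusted p = 0.186) on the normal diet and 0.81 (SE 0.33, adjusted p = 0.659) on fish oil, with an interaction of −0.18 (95% interval −1.10 to 0.73).

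**Figure D5:**
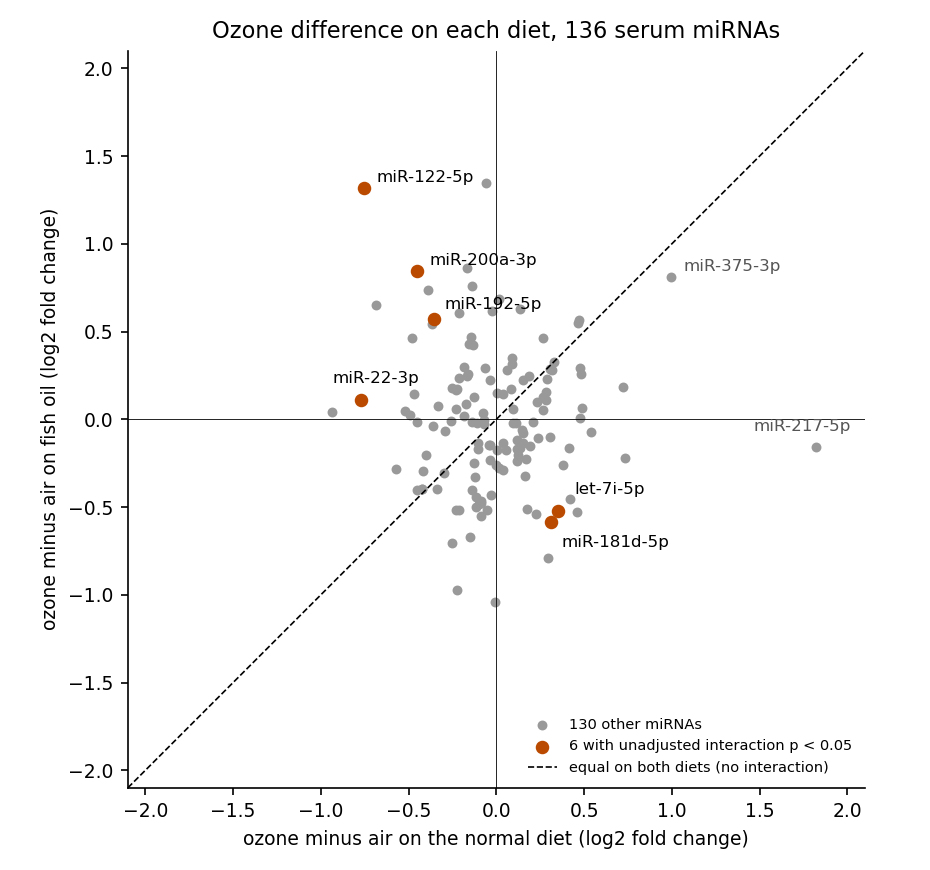
Log2 ozone-minus-air difference on the normal diet (x axis) and on fish oil (y axis) for 136 miRNAs (points); points on the dashed line have no interaction, and orange marks the 6 with an unadjusted interaction p below 0.05. miR-122-5p lies farthest above the line (2.07) and miR-217-5p farthest below it (−1.98), while miR-375-3p lies near it.

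Seen from the other side, the same contrast asks whether fish oil changed serum miRNAs differently in ozone than in air. edgeR called 8 miRNAs in air (5.88%) and 31 in ozone (22.8%), of which 4 in both, 4 in air alone and 27 in ozone alone. Of these 35, 0 were called for the interaction, so the unequal counts are not shown to be a difference in response. The 4 called in both were miR-128-3p, miR-181c-5p, miR-191a-5p and miR-328a-3p, all lower on fish oil, with interactions of −0.38, −0.06, −0.46 and −0.40. The diet differences had the same sign in air and ozone for 33 of the 35. These 35 were picked by the diet test itself, and the share of equal signs over all 136 was not counted. Across all 136, the diet differences in air and in ozone had a Pearson r of 0.73 and a Spearman rho of 0.76.

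Called in air alone were miR-122-5p, miR-192-5p, miR-217-5p and miR-425-5p. For miR-122-5p fish oil gave −2.06 in air and 0.01 in ozone, and for miR-192-5p −1.08 and −0.15. miR-425-5p had −0.87 and −0.62, with an interaction of 0.25. Called in ozone alone, with an unadjusted interaction p below 0.05, were miR-200a-3p (−0.19 in air, 1.11 in ozone) and miR-181d-5p (−0.42 and −1.32). The other 25 of the 27 included miR-143-3p (0.86 and 1.27), miR-199a-3p (0.89 and 1.51) and miR-92a-3p (−0.75 and −1.43).

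The most abundant miRNAs carried no called interaction either. miR-143-3p had 0.42 (95% interval −0.53 to 1.37) and miR-191a-5p, encoded with miR-425 and abundant in platelets, −0.46 (−1.33 to 0.41). miR-30a-5p had 0.56 (−0.13 to 1.24), miR-10a-5p 0.49 (−0.56 to 1.54), and miR-25-3p −0.30 (−0.90 to 0.31). These values moved with single libraries: without normal air 4 miR-143-3p was at 0.12, miR-10a-5p at 0.14 and miR-30a-5p at 0.35, without normal air 3 miR-25-3p was at −0.18, and miR-191a-5p ran from −0.71 (without fish oil ozone 6) to −0.25 (without fish oil ozone 3).

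Counts assigned to miRNAs ranged from 23276 to 94264 a library and were lower on fish oil, with means of 65638 ± 15675 (normal air), 63357 ± 20129 (normal ozone), 37262 ± 11332 (fish oil air) and 33302 ± 7385 (fish oil ozone; SD). Library measures were tested for the interaction by permuting the residuals of the additive model, two-sided, and the adjusted p over the 5 measures was 0.891 for each. The interaction of the log2 miRNA total was −0.05 (SE 0.35, permutation p = 0.891) and that of the miRNA share of all reads 0.08 on the log2 scale (SE 0.45, permutation p = 0.857). The log2 total of reads implied by the deposited normalized values gave −0.12 (SE 0.47, permutation p = 0.784). An index of red cell breakage, the log2 ratio of miR-451-5p to miR-23a-3p counts, gave 0.33 (SE 0.77, permutation p = 0.654), and with it as a covariate the interaction of miR-200a-3p was 1.18 and that of let-7i-5p −0.85. The number of detected miRNAs, at 5 counts or more, gave −9.4 (SE 12.95, permutation p = 0.455). The miRNA share of the implied read total averaged 1.36% (normal air), 1.56% (normal ozone), 0.66% (fish oil air) and 0.826% (fish oil ozone). On the CPM scale used here, 3 counts, the limit that a count of 0 allows, was between 34.6 and 80.7 CPM in normal air libraries and between 47.8 and 109 CPM in fish oil air libraries.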

How the data were processed

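Small RNA from 100 µl of serum was sequenced as 50-cycle single reads. The tools listed in the submitters' processing notes are Bowtie 1.0.0, Partek and bcl2fastq, and the build is rn5 (rat). The authors deposited expected counts for 832 miRNA loci (50 with fractional values) and a table of RPM (scaled to a library's reads), whose implied read totals were used as a check; coordinates are as deposited, with no statement of the base they start from. Handling of reads that match several loci is not given in the sources used here. Counts were summed by miRNA name (753) and rounded.

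Groups came from the diet and exposure labels, with replicates numbered in accession order. edgeR 4.0.16 (R 4.3.3; TMM, glmQLFit robust, glmQLFTest, two-sided) was fitted with 1 mean per group to 23 libraries, after filterByExpr (minimum count 10, minimum total 15), which left 136 miRNAs holding 99.3% of counts. Benjamini-Hochberg adjustment ran over these, with a threshold of 0.05. Alternatives used DESeq2 1.42.0, limma 3.58.1 (voom, and log2 of RPM plus 1 or 10), other scalings, filters and covariates, loci kept apart, and each library left out. Library measures were tested with 100000 permutations. The fitting script was tested on simulated data.

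miRNAs were named by a rule: any called; the 10 positive and 10 negative with the smallest p; the 10 most abundant; members of 19 lists by p and abundance; the most and least precise; and some known from other results. The members, lists and tests were chosen with earlier results of these data known. miR-375-3p, the miRNAs called for fish oil and those at the ends of a list were named after their values were seen.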

Additional observations from a re-analysis of the deposited data

Results flagged for a closer look

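In 100 sets of values (the 20 miRNAs of either sign with the smallest p and 5 library measures, in each of 4 groups), 8 had 1 library far from the rest by Dixon's test at the 95% level; chance gives about 1 in 20. In fish oil ozone 5, miR-192-5p was at 108400 CPM (the other 4 libraries 49865 to 57698) and miR-122-5p at 52547 CPM (10422 to 15936). In fish oil ozone 4, miR-101b-3p was at 1035 CPM (2001 to 2528) and 158 miRNAs were detected (134 to 138). In fish oil air, miR-141-3p was at 1259 CPM in library 6 (410 to 619) and let-7a-5p at 928.8 CPM in library 3 (2053 to 2898). In normal air 3, miR-27a-5p was at 139.6 CPM (289 to 404) and miR-1839-5p at 97.69 CPM (312 to 508).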

How the results depend on the processing

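The count of 0 called interactions was the same under 14 other settings and with each of the 23 libraries left out; the smallest adjusted p of an edgeR fit without 1 library was 0.140. At an unadjusted p below 0.05 there were 1 with the implied read total as scaling (miR-122-5p), 0 on the RPM values with 1 or with 10 added, and 25 of 440 with no filter on low counts. The count for ozone on the normal diet was 0 in edgeR, 1 with DESeq2 and 0 to 1 as each library was left out (1 without normal air 3); the called miRNA was miR-22-3p both times, and the cause was not tested. The 20 miRNAs of smallest p by sign kept their sign in every setting. They were picked by their p in the main fit and the settings reuse the same libraries, so kept signs are no independent support. Of the 52 named by the rule, 44 kept it, and miR-21-5p, miR-1-3p, miR-16-5p, miR-23a-3p, miR-24-3p, miR-126a-3p, miR-99b-5p and miR-30d-5p did not. Interactions of miR-192-5p and miR-122-5p had an unadjusted p above 0.05 in 3 of the 23 fits that left out a library each. Leaving out 1 library moved the interaction by over 1.5 times, or turned its sign, for 38 of the 52, and for 8 of the 20. No paired analysis was possible because the replicate numbers follow accession order and pair no animals. Depth limits the rarer miRNAs most: standard errors ran from 0.26 to 1.28.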
